A study of Mus musculus with 2 samples.

Results

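Leukocyte hairpins in the adrenal gland are described here as 7 microRNA genes known from myeloid and lymphoid cells: Mir142, Mir223, Mir150, Mir155, Mir146, Mir146b and Mir342. They were taken by name from 2202 microRNA genes, and all 7 were found in the annotation. Small RNA was sequenced from adrenal gland tissue of male B6CASTF1/J mice (F1 hybrids of the laboratory strain C57BL/6J with CAST/EiJ) at an age of 25 days. The study has 1 group of 2 libraries, labelled as biological replicates 1 and 2, with no treatment and no second group. Each library has its own animal number in the labels, yet 1 donor entry is given for both, so the spread between them may be technical. No hairpin defines the adrenal gland. Mir375, known from endocrine cells, stood at 33380 and 29004 counts per 1000000.

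MicroRNAs are short RNAs cut from hairpin precursors, and they lower the output of messenger RNAs that pair with their seed, bases 2 to 8 of the mature strand. Leukocytes carry a characteristic set. miR-142 is made in nearly all cells of the blood lineages, miR-223 is the main microRNA of neutrophils and monocytes, and miR-150 marks mature lymphocytes. miR-155 and miR-146a are induced when immune cells are activated, and miR-146a then lowers the signalling proteins Traf6 and Irak1. In the adrenal gland such RNA can come from resident macrophages, mast cells or blood left in the vessels. Whether other cells of the gland also make these hairpins was not tested, so the counts need not all be leukocyte RNA. In a bulk sample, fewer cells of a type and less RNA per cell cannot be told apart.

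The mature sequences show which hairpins could share reads. They are given 5′ to 3′ with the seed in capitals, from RefSeq on build GRCm38.p6, for the arm that is known as the more abundant one and for both arms of Mir142. The counts are per hairpin and add both arms together.
miR-142a-5p: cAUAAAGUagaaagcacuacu
miR-142a-3p: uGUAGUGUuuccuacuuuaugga
miR-142b: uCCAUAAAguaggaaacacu
miR-223-3p: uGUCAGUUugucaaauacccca
miR-155-5p: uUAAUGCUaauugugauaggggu
miR-146a-5p: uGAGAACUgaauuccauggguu
miR-146b-5p: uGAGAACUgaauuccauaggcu
miR-342-3p: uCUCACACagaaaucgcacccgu
Of these sequences only the miR-146 pair shares a seed, and no other mature entry of the RefSeq table holds any of the seeds shown. miR-146a-5p and miR-146b-5p are identical over their first 17 bases and differ by G18A and U21C, counted from the 5′ end of miR-146a-5p. miR-142b comes from Mir142b, annotated on the strand opposite Mir142, and all 20 of its bases lie in the reverse complement of miR-142a-3p. The major arm of Mir150, miR-150-5p, is named only.

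The hairpins lie at separate places in the genome (mm10, GENCODE M21). Mir142 (ENSMUSG00000105196.1) is in an intron of the noncoding Mir142hg on chromosome 11, from 87756864 to 87756927 on the plus strand. Mir223 (ENSMUSG00000076066.1) lies within an exon of the noncoding F630028O10Rik on the X chromosome, from 96242817 to 96242926. Mir155 (ENSMUSG00000065397.1) lies within an exon of Mir155hg, the noncoding host once called Bic, on chromosome 16, from 84714140 to 84714204. Mir342 (ENSMUSG00000065436.1) sits in an intron of Evl, a regulator of actin, on chromosome 12, from 108658620 to 108658718. Mir146b (ENSMUSG00000070127.2) sits in an intron of Mfsd13a on chromosome 19, from 46342762 to 46342870. Mir150 (ENSMUSG00000065495.1), on chromosome 7 from 45121757 to 45121821, and Mir146 (ENSMUSG00000065601.1), on chromosome 11 from 43374397 to 43374461 on the minus strand, are outside annotated genes. No member has another microRNA gene within 10 kb on its own strand. The 7 therefore stand at 7 separate loci, although Mir142 and Mir146 share a chromosome.

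Together the 7 hairpins made up a small part of the adrenal microRNA pool. They held 17987 of 3588361 sense counts in replicate 1, or 0.501% (0.494 to 0.509, exact binomial interval at 95%). In replicate 2 they held 12866 of 4541373, or 0.283% (0.278 to 0.288). The share was 1.77-fold larger in replicate 1, and the intervals did not overlap. These intervals cover only counting error within a library, not the spread between libraries. Reads carried no molecular identifiers and are not independent molecules, so the intervals may be too narrow even for that. Mir122, the dominant microRNA of hepatocytes, made up 0.0892% of the counts in replicate 1 and 19.8% in replicate 2. With Mir122 out of the totals the leukocyte share was 0.502% in replicate 1 and 0.353% in replicate 2, a 1.42-fold difference. Levels are therefore given on both totals, as counts per 1000000 counts of all microRNA genes (CPM) and as the same without Mir122.

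Of the 7 members, 6 had at least 10 counts in both libraries and could be compared between them, and Mir146b did not. Across the microRNA genes, 352 met that minimum. Each value below counts reads of whole short molecules, so it was not divided by length, and any preference of the library chemistry for particular sequences was not tested. Mir146 was the highest member. It encodes miR-146a, which restrains NF-kB signalling. Mir146 had 1654 CPM (replicate 1) and 1143 CPM (replicate 2), a mean of 1398 CPM ± 361 (SD, n = 2), and ranked 61 of all genes by mean level. On the total without Mir122 it had 1655 and 1424 CPM, so the gap between the libraries narrowed.

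Mir342, which lymphoid and myeloid cells express and which is cut from an intron of Evl, came next. It had 1078 CPM (replicate 1) and 612 CPM (replicate 2), with a mean of 845 CPM ± 329, and ranked 82. Without Mir122 in the total the values were 1079 and 763 CPM. Both libraries thus kept Mir342 below Mir146 and above every other member.

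Mir142, the hairpin shared by nearly all blood lineages, showed the widest spread relative to its mean among the 6 compared. It had 1010.5 CPM (978 to 1044, exact Poisson interval) in replicate 1 and 317 CPM (301 to 334) in replicate 2. The mean was 664 CPM ± 490.3, which placed it at rank 97. It ranked 73 in replicate 1 and 122 in replicate 2. With Mir122 left out of the total, replicate 1 stood at 1011 CPM and replicate 2 at 395 CPM.

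Mir150, the lymphocyte hairpin, had 691 CPM (replicate 1) and 415 CPM (replicate 2). Its mean was 553 CPM ± 195 and its rank 102. On the total without Mir122 its levels were 691 and 517 CPM. Mir150 lay below Mir142 in replicate 1 and above it in replicate 2, so the order of these hairpins was not the same in the libraries.

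Mir155, the activation-induced hairpin, had 324 CPM (replicate 1) and 240 CPM (replicate 2). The mean was 282 CPM ± 59.2, at rank 128. Without Mir122 in the total the libraries stood at 324 and 299 CPM. The SD was then 17.7 CPM, the smallest relative to the mean among the 6 compared hairpins.

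Mir223, the neutrophil and monocyte hairpin, had 255 CPM in replicate 1 (239 to 272) and 105 CPM in replicate 2 (96.0 to 115). Its mean was 180.1 CPM ± 106 and its rank 158. On the total without Mir122 it had 255 and 131 CPM. It was the lowest of the 6 compared hairpins in both libraries.

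Mir146b, the relative of Mir146 with the same seed, was at the edge of detection. It had 5 counts in replicate 1 and 3 in replicate 2, or 1.39 CPM (0.452 to 3.25) and 0.661 CPM (0.136 to 1.93). The floor of 3 counts was worth 0.836 CPM (replicate 1) and 0.661 CPM (replicate 2), so replicate 2 lay at its floor. On the total without Mir122 its levels were 1.39 and 0.823 CPM. The ratio of replicate 2 to replicate 1 was 0.474, with an interval from 0.0736 to 2.44, and no difference was detectable at this depth. For each Mir146b count there were 1187 Mir146 counts (508 to 3656) in replicate 1 and 1730.3 (592 to 8393) in replicate 2. The hairpins share a run of 21 bases, and a read that maps to several places was not counted for either, so both counts rest on the reads that tell them apart. No other member shares a run of 20 bases with another hairpin on its own strand.

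Ordered by mean level, the 7 ran Mir146, Mir342, Mir142, Mir150, Mir155, Mir223 and Mir146b. The ranges of the libraries overlapped between the neighbours Mir342 and Mir142, between Mir142 and Mir150, and between Mir155 and Mir223. They did not overlap between Mir146 and Mir342, between Mir150 and Mir155, or between Mir223 and Mir146b.

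**Figure D1:**
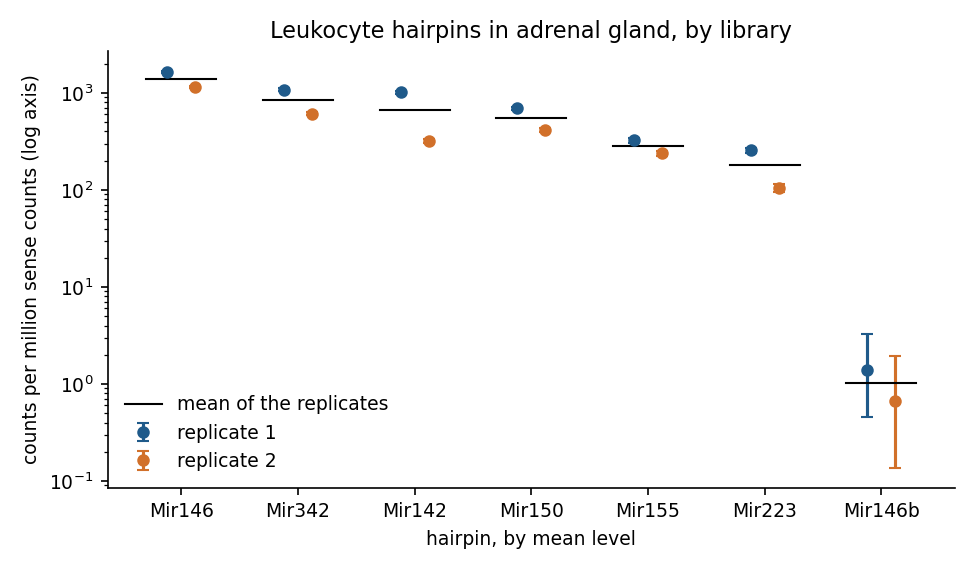
Levels of the 7 leukocyte hairpins in counts per 1000000 sense counts (log axis), with 1 point per library, exact Poisson intervals at 95% as bars and the mean of the libraries as a black line. Replicate 1 lies above replicate 2 for each hairpin, with overlapping intervals for Mir146b alone, and Mir142 stands at 1010.5 and 317 CPM.

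The level of Mir142 depends on reading the strands apart. Mir142b faces it, spans 87756841 to 87756955 on the minus strand and covers Mir142 in full. Mir142 had 3626 sense counts in replicate 1 and 1440 in replicate 2, and no antisense counts in either. Mir142b had 0 sense counts in both libraries, and its antisense counts were the same 3626 and 1440. In the column that ignores strand, both hairpins were at 0, because reads that fit 2 annotated genes were set aside as ambiguous. The list without Mir142, as that column gives it, would be led by Mir146 with a mean of 43.4% of the members' counts. For the other 6 members the sense column and the either-strand column differed by 1 and 2 counts at Mir150 and by none elsewhere.

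Replicate 2 held fewer reads of each compared member than replicate 1 relative to the totals. All 6 were called lower in replicate 2 by a two-sided exact binomial test that set each hairpin's reads against the totals, with p-values adjusted by Benjamini-Hochberg over the 352 genes. Among all genes tested 36.6% were called lower in replicate 2 and 30.4% higher, and 67.0% were called in either direction. The test compares these libraries, not conditions, and weighs their difference against counting error alone. The 6 hairpins were chosen with earlier results of these data known, so their common direction is a description.

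Mir142 was 3.19-fold (3.00 to 3.39) lower in replicate 2 and Mir223 was 2.42-fold (2.17 to 2.71) lower. Only 7 of the 352 tested genes had a lower log2 difference than Mir142, and 14 had a lower one than Mir223. Mir342 followed at 1.76-fold (1.68 to 1.85) and Mir150 at 1.66-fold (1.57 to 1.77), with 34 and 43 genes lower. Mir146 was 1.45-fold (1.39 to 1.502) and Mir155 1.35-fold (1.24 to 1.47) lower, with 79 and 94 genes lower. Mir155 had the largest adjusted p of the 6, 3.91e-12. Among these 6 hairpins Mir142 and Mir223 thus lay furthest from the median gene, and Mir146 and Mir155 nearest to it. This is an order of single hairpins, and whether it follows cell type or activation was not tested.

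The median difference of the 6 members was -0.77 on the log2(CPM + 1) scale, replicate 2 less replicate 1, against -0.04 for all tested genes. Leaving Mir122 out of the totals moved the median of all genes to 0.27 and that of the members to -0.46. Relative to the median gene the members stood at -0.74 with Mir122 in the totals and at -0.72 without it. A change of total shifts all genes alike, so these values could differ only through the pseudocount. On the total without Mir122, 5 of the 6 were called lower in replicate 2, where 21.3% of all tested genes were called lower, 176 of 352 were called higher and 71.3% were called in either direction. Mir155 was the exception, with a ratio of 0.923 (0.849 to 1.00) and an adjusted p of 0.0788. The ratios of the 5 called ran from 0.391 for Mir142 to 0.861 for Mir146.

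**Figure D2:**
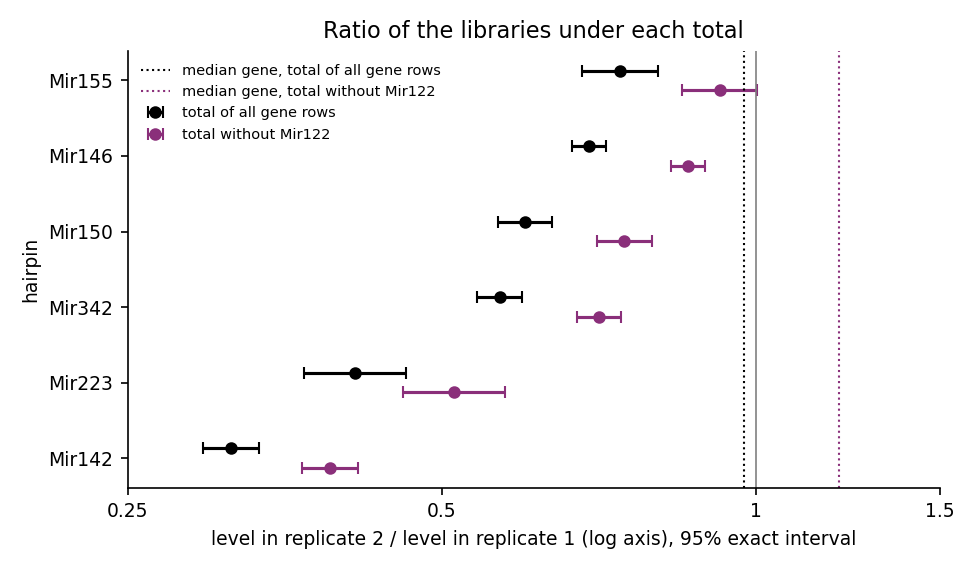
Ratio of the level in replicate 2 to that in replicate 1 (log axis) for the 6 compared hairpins, with exact intervals at 95%, on the total of all gene rows (black) and on the total without Mir122 (purple). Dotted lines mark the median gene on each total; each hairpin lies to the left of it, and the interval for Mir155 without Mir122 reaches 1.00.

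**Figure D3:**
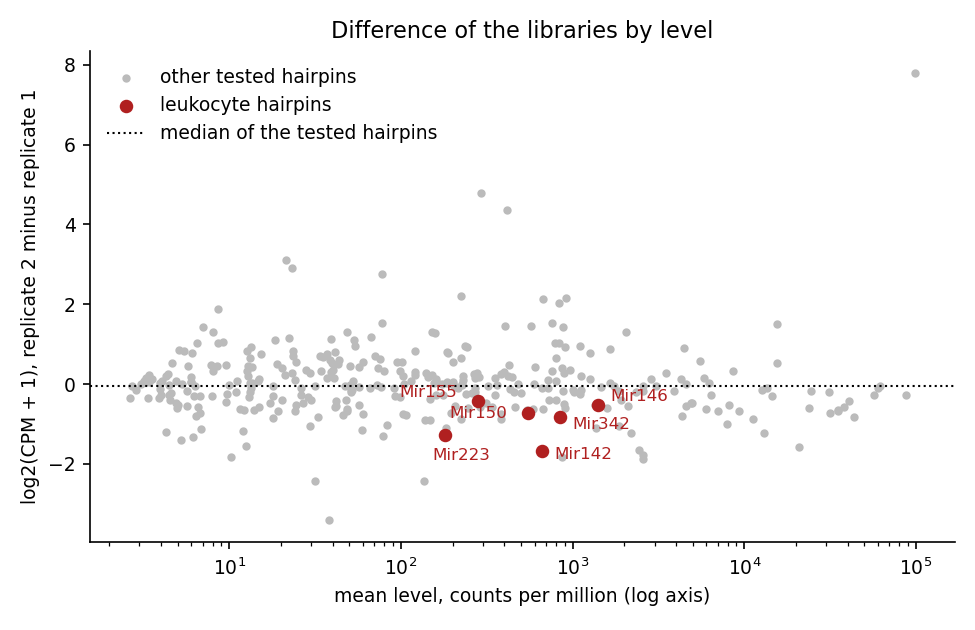
Difference of log2(CPM + 1) between replicate 2 and replicate 1 against mean level (log axis) for the 352 tested hairpins, with leukocyte hairpins in red and the median of -0.04 dotted. The 6 red points lie between -1.67 and -0.43, with Mir142 the lowest, and the grey point at the upper right is Mir122.

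The makeup of the leukocyte counts differed between the libraries, and this does not depend on any total. Mir142 supplied 20.2% of the 7 members' counts in replicate 1 (19.6 to 20.8, exact binomial interval) and 11.2% in replicate 2 (10.7 to 11.7). Mir223 supplied 5.09% (4.77 to 5.42) and 3.72% (3.40 to 4.06). Mir146 made up 33.0% (32.3 to 33.7) in replicate 1 and 40.3% (39.5 to 41.2) in replicate 2. The parts of Mir142 and Mir223 were thus smaller, and that of Mir146 larger, in replicate 2, with intervals that did not overlap. Mir155 had 6.45% (6.10 to 6.82) and 8.46% (7.99 to 8.96), and was also the larger part in replicate 2. Mir342 supplied 21.5% and 21.6% and Mir150 13.8% and 14.6%, and for both of these the intervals overlapped.

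Within each library the ratio of 2 hairpins needs no total. These ratios restate the counts given above, so their order follows from those and is not a further test. Mir142 had 1.46 counts for each Mir150 count in replicate 1 and 0.764 in replicate 2. For each Mir155 count, Mir142 had 3.12 counts in replicate 1 and 1.32 in replicate 2. Mir142 and Mir223 stayed closer, with 3.96 counts of Mir142 per Mir223 count (3.68 to 4.27) in replicate 1 and 3.01 (2.71 to 3.35) in replicate 2. Mir342 and Mir150 moved least against each other, at 1.56 (1.48 to 1.64) and 1.48 (1.39 to 1.57).

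**Figure D4:**
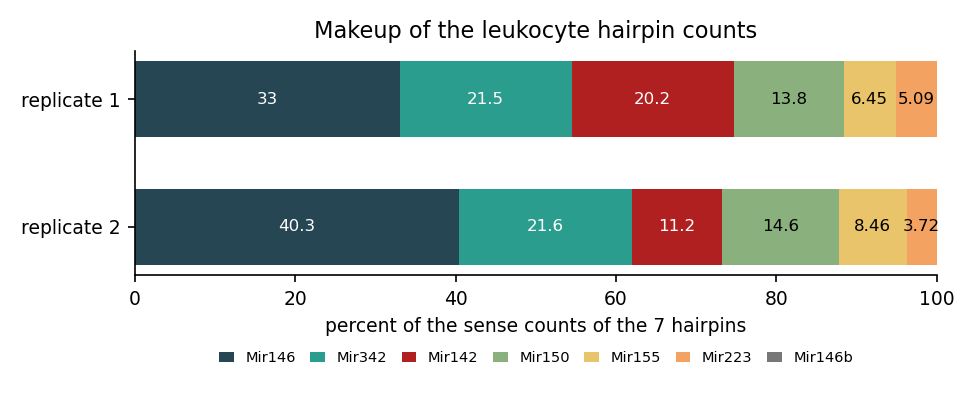
Percent of the 7 hairpins' sense counts supplied by each hairpin, 1 bar per library, with values printed on parts over 3%. Mir142 takes 20.2% in replicate 1 and 11.2% in replicate 2, Mir146 takes 33.0% and 40.3%, and Mir146b is too small to see.

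Red blood cell hairpins, from the other main cell type of blood, were set beside the leukocyte members. Mir451a, the main microRNA of red blood cells, had 1208 CPM (replicate 1) and 1010 CPM (replicate 2). Its ratio was 0.836 on the total of all genes, where it was called lower in replicate 2, and 1.04 without Mir122, where it was not called. The 3 erythroid hairpins found, of 5 symbols listed, held 0.154% of the counts in replicate 1 and 0.130% in replicate 2, and none was at 0. For each Mir451a count, Mir142 had 0.837 counts (0.801 to 0.875) in replicate 1 and 0.314 (0.296 to 0.333) in replicate 2. Mir223 had 0.211 (0.196 to 0.227) and 0.104 (0.0947 to 0.115). Set against Mir451a, all 6 members were lower in replicate 2, and only for Mir155, at 0.268 (0.251 to 0.286) and 0.238 (0.222 to 0.254), did the intervals overlap.

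Hairpins of other tissues also differed between the libraries, and their part in the leukocyte result was not tested. The liver list (Mir122, Mir192, Mir194-1, Mir194-2) held 0.0949% of counts in replicate 1 and 19.9% in replicate 2, with none at 0, and its 3 tested hairpins were called higher in replicate 2. The skeletal muscle list held 0.0993% and 6.61e-05%, with 2 of its 6 hairpins at 0 in replicate 1 (Mir133a-2 and Mir133b) and 5 in replicate 2 (all but Mir206). Nearly all of its counts came from Mir206 alone, with 3540 in replicate 1 and 3 in replicate 2. Mir1a-1, Mir1a-2 and Mir133a-1 had 7, 13 and 3 counts in replicate 1. Reads that map to several places were not counted, so numbered copies such as Mir1a-1 and Mir1a-2 can be undercounted. Low counts of such copies therefore need not mean absence, and the loss was not tested. The smooth muscle and stroma list held 4.98% and 3.31%, with Mir199a-1, also a numbered copy, at 0 in both libraries. Of its 5 tested hairpins 3 were called lower and 1, Mir214, higher in replicate 2, and their median was -0.72. Mir126a of endothelial cells lay near the median gene, with a ratio of 0.968. Mir126a was called lower in replicate 2 on the total of all genes and higher without Mir122. Mir126b, the other endothelial hairpin listed, had 7 counts in replicate 1 and 40 in replicate 2. It was below the minimum of 10 counts in replicate 1 and was not tested.

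**Figure D5:**
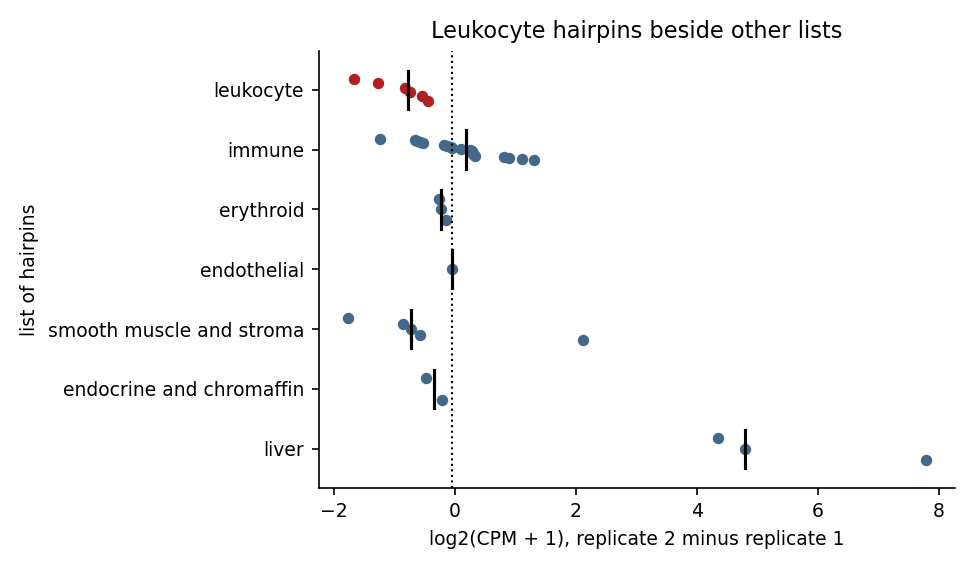
Difference of log2(CPM + 1), replicate 2 less replicate 1, for each tested hairpin of the leukocyte list (red) and of 6 other lists (blue), with list medians as black bars and the median of all tested genes dotted. The leukocyte median is -0.77, the erythroid median -0.23, the smooth muscle and stroma median -0.72 and the liver median 4.80; skeletal muscle had no hairpin with 10 counts in both libraries.

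A wider list of 20 hairpins with known parts in immune cells, most of them also common in other tissues, was set beside the members. All 20 were tested. In replicate 2, 8 were called higher, 5 lower and 7 neither, with a median of 0.18, where 30.4% of all tested genes were called higher and 36.6% lower. On the total without Mir122, 12 passed as higher, 4 as lower and 4 as neither, where 176 of the 352 tested genes passed as higher. The difference between this list and the members was not tested. Mir21a, a hairpin of activated leukocytes and of many other cells, was the most abundant and was called lower, with 18167 CPM (replicate 1) and 7728 CPM (replicate 2). Mir181d of the thymocyte-associated Mir181 family was called lower too, at 1581 and 1106 CPM. Mir125a, at 3093 and 5781 CPM, Mir29a, at 3150 and 3841 CPM, and Mir181c, at 804 and 981 CPM, were called higher. Mir181c is of the same family as Mir181d, so that family did not share a direction. Mir17, a cluster member active in dividing lymphocytes, had 3095 and 3015 CPM and was not called on the total of all genes, while without Mir122 it was called higher, with a ratio of 1.21. Mir511, in an intron of the macrophage gene Mrc1 and named after its values were seen, had 54 and 42 counts. It was called lower on the total of all genes, with a ratio of 0.615 (0.401 to 0.937), and not without Mir122 (adjusted p = 0.272).

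The genes nearest to each member in level over the 2 libraries were found by distance on the log2(CPM + 1) scale. For Mir142 they were Mir376a, at 0.48, and Mir150, at 0.67. Mir223 was nearest to Mir494 (0.16) and Mir668 (0.40), and Mir150 to Mir137 (0.07) and Mir672 (0.15). Mir155 was nearest to Mir16-2 (0.10) and Mir300 (0.18), Mir146 to Mir181d (0.08) and Mir431 (0.26), and Mir342 to Mir16-1 (0.22) and Mir708 (0.28). Among these 12 nearest genes only Mir150 is itself a member. With 2 libraries the distance describes level more than pattern.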

How the data were processed

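Small RNA of adrenal gland was measured in 2 libraries of 1 group. The authors deposited raw counts of reads per microRNA gene, on mm10 with GENCODE M21, as their accompanying notes state. Aligner, counter and trimming settings were not given in the sources used here. The 4 summary lines of each table were left out of totals. Unmapped reads were 21.3% of input in replicate 1 and 22.8% in replicate 2, reads with several matches 31.6% and 27.0%, and reads beyond microRNA genes 5.73% and 5.99%. Of 3 count columns the sense column was used; its total was 3588361 in replicate 1 and 4541373 in replicate 2, so 1 count was worth 0.279 and 0.220 CPM.

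Members, gene lists and tests were chosen with earlier results of these data known. Genes reaching 10 counts in each library were compared by an exact binomial test with Benjamini-Hochberg adjustment (threshold 0.05). It was tried on simulated data that held counting error alone, so that trial does not cover further spread between these libraries. Log2 differences used a pseudocount of 1 CPM. With 1 group, edgeR had no contrast to fit. Alternatives were totals without Mir122 or of all input reads, edgeR 4.0.16 TMM and DESeq2 1.42.0 size factors, either-strand counts, minimums of 1 count in either or 50 in both libraries, pseudocounts of 0.1 and 10 CPM, and each library left out. Named genes were the 7 members, hairpins opposite or within 10 kb of them, the 2 genes nearest in level to each, the 6 most abundant of the immune list, and marker genes beside a result. Mature sequences were matched by symbol in the RefSeq table (GRCm38.p6), which held mature entries for all 7 members but not the major arm of Mir150. Computation used Python 3.11.15, scipy 1.17.1 and R 4.3.3.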

Additional observations from a re-analysis of the deposited data

How the results depend on the processing

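Of 6 members tested, 6 were called lower in replicate 2 with edgeR TMM factors, DESeq2 size factors and totals of all input reads. Among the 352 genes tested, 129, 118 and 109 were called lower under these settings. With a minimum of 1 count in either library, 6 of 7 members and 133 of 749 genes were called lower. With 50 counts in both libraries, 6 of 6 members and 116 of 267 genes were. The count was 5 of 6 members without Mir122 in the totals. It was 5 of the 5 members that either-strand counts leave, where 119 of 323 genes were called lower. The TMM factors were 0.999958 in replicate 1 and 1.00004 in replicate 2, so that setting nearly repeats the main one. For members already compared, the other count minimums alter only the adjustment of the p-values. Leaving out Mir122 changed the calls among all 352 tested genes from 129 lower and 107 higher in replicate 2 to 75 lower and 176 higher. Over 29 recomputed ratios of single members all kept their direction, and 1, Mir155 without Mir122 in the totals (0.923), passed the threshold no longer. These ratios use the same counts under other totals, or nearly the same reads with either-strand counts, so they are not separate checks. Mir142 has no ratio with either-strand counts. The members' median log2 difference was -0.46 without Mir122 in the totals and -0.68 with totals of all input reads. The median gene stood at 0.27 and 0.05 there. Relative to the median gene the members stood between -0.74 and -0.72 under every total, scaling and pseudocount tried. A change of total or scaling shifts all genes alike, so this relative value could hardly differ and does not test the result. The leukocyte share of all input reads was 0.208% in replicate 1 and 0.125% in replicate 2, with a mean of 0.166%. With either-strand counts Mir146 made up a mean of 43.4% of the members' counts over the libraries, because Mir142 is then at 0. Leaving out a library gives the value of the other, from 0.283% to 0.501% for the leukocyte share and from 33.0% to 40.3% for the Mir146 part, and leaves no comparison. No paired analysis was possible because there is 1 group. Depth limits Mir146b alone among the members.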

Other observations

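Antisense reads were nearly absent at the leukocyte hairpins. Mir150 had 1 antisense count in replicate 1 and 2 in replicate 2, both under the floor of 3 counts. The other 6 members had 0 in both libraries. Mir5121, the one microRNA gene within 10 kb of Mir150, lies 5097 bases from it on the opposite strand and had 88 and 144 sense counts. Mir150 itself had 2478 and 1884 sense counts. The leukocyte members held 0.152 counts for each count of the 20 wider immune hairpins in replicate 1 and 0.110 in replicate 2.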
